A study of Mus musculus with 2 samples.

Results

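The 8 genes described here serve thyroid hormone synthesis or its control: Tg, Tshr, Slc5a5, Slc26a4, Pax8, Iyd, Duox1 and Duox2. They were chosen by name, as genes of thyroid hormone synthesis and thyroid autoantigens, out of 23411 genes with a value, and all 8 had reads in both libraries. RNA came from medullary epithelial cells of the thymus (mTEC), which a cell sorter had split by MHC class II into an MHC-II high and an MHC-II low fraction. There was 1 library of each fraction, from a pool of 3 B6 mice, with no age, treatment or genetic change named in the labels. Every difference below is therefore between 2 libraries and has no replicate check.

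Thyroid follicle cells build the hormone on thyroglobulin, a large protein that they secrete into the follicle. Iodide enters through the sodium-iodide symporter, leaves into the follicle through pendrin, and is attached to thyroglobulin with the help of hydrogen peroxide made by the DUOX enzymes. Medullary thymic epithelium transcribes many genes of such peripheral tissues, in part through the regulator Aire, and shows their products to developing T cells. Thyroglobulin and the TSH receptor are classical targets of autoimmune thyroid disease. Several of the 8 genes are also known from other organs, Slc26a4 from inner ear and kidney, Slc5a5 from stomach and lactating breast, Pax8 from kidney, Iyd from liver and kidney, and the DUOX genes from airway and gut. "Restricted to thyroid" is thus a working name, which 2 thymic libraries cannot test.

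Of the 8 genes, 4 were higher in MHC-II high cells, with the whole 95% interval of the reads beyond 2-fold. They were Slc26a4, Iyd, Pax8 and Tg, with ratios from 2.73 to 9.85. Duox1 went the other way and was 2.58-fold higher in MHC-II low cells, a call that was lost with 3 other choices of library totals. The remaining 3, Duox2, Slc5a5 and Tshr, were not beyond 2-fold. By the same criterion 14.5% of all 17438 compared genes were higher in MHC-II high cells and 10.9% were lower. The members' median log2 ratio was 0.97, against −0.01 for all compared genes. Ratios here are MHC-II high over MHC-II low, computed from reads scaled to library size (CPM), on library totals adjusted by TMM, a method that sets the bulk of genes level between libraries. All 8 genes passed the minimum of a mean CPM of 1, but Pax8 did so only through the MHC-II high library.

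The stretches of DNA upstream of the members' starts are shown for the 3 genes with the largest ratios and for Duox1, the gene that went the other way. RefSeq windows on GRCm38.p6 were matched for 6 of the 8 genes, all but Tg and Tshr. Each line gives the 250 bases before the start, 5′ to 3′. The Slc26a4 window lies at chr12:31559985-31560234 on the minus strand, that of Iyd at chr10:3540024-3540273 on the plus strand, that of Pax8 at chr2:24475600-24475849 on the minus strand and that of Duox1 at chr2:122315422-122315671 on the plus strand. The reads were placed on another build, mm9. Capitals mark 3 short motifs: TATAAA (the TATA box, read on the gene's strand), CTCAAG (a core bound by the thyroid factor Nkx2-1) and CCAAT, the last 2 on both strands.
Slc26a4: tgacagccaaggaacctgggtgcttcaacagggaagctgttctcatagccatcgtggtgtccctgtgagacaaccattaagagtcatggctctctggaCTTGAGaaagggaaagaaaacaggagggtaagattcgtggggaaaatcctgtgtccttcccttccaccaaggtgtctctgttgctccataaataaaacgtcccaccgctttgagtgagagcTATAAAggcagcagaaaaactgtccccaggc
Iyd: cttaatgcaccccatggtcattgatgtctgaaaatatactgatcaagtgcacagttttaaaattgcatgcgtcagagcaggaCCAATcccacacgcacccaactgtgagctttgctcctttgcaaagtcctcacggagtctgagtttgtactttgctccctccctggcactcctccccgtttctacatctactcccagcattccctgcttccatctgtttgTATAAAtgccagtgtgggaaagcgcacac
Pax8: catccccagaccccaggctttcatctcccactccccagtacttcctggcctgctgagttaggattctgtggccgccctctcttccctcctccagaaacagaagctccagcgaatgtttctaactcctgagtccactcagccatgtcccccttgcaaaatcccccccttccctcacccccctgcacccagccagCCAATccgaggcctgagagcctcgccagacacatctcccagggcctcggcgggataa
Duox1: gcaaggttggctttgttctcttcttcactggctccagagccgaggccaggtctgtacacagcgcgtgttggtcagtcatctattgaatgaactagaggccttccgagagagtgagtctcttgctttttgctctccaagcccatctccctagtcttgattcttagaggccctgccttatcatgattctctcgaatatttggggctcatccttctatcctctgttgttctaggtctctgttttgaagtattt

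A TATAAA lay 31 bases before the start of Slc26a4 and 29 bases before that of Iyd, the pair with the highest ratios. Tg, also among the higher genes, had no window to search. TATAAA was in 8.12% of all 27025 RefSeq windows of this length, and in none of the windows of Pax8, Slc5a5, Duox1 and Duox2. CTCAAG lay on the opposite strand of Slc26a4 and Duox2, 152 and 106 bases before the start, and in 13.6% of all windows. CCAAT was in the windows of Slc5a5, Pax8, Iyd and Duox2 and in 34.5% of all windows. The Duox1 window held none of the 3 motifs. G and C made up 49.6% of the Slc26a4 window, 48.4% of that of Iyd, 47.6% of that of Duox1 and 60.4% of that of Pax8, with a median of 52.0% over all windows. These matches describe letters and not binding.

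Tg encodes thyroglobulin, the scaffold and store of the hormone. It had 1778 reads in the MHC-II high and 216 in the MHC-II low library, or 11.6 against 4.25 CPM. The ratio was 2.73, with an interval of 2.37 to 3.16, higher than that of 88.6% of the compared genes. Per length, on the RPKM scale (here CPM per kilobase of transcript, on TMM-scaled totals), the level was 1.38 against 0.504. In the MHC-II high library this lay above the level of 36.9% of all genes. The long Tg transcript of 8436 bases thus held many reads at a low level per length. Sla, a gene of lymphocyte signalling that lies inside Tg on the other strand, shares no exonic base with it in GENCODE and had 836 against 317 reads, a ratio of 0.88. Next to Tg, Phf20l1 had a ratio of 1.31 and Ccn4 one of 0.72, so none of these 3 was beyond 2-fold. An antisense gene model, Gm17140, shares 112 of the 8883 exonic bases of Tg, and its reads cannot be told from those of Tg without strand.

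Slc5a5 and Slc26a4 carry iodide into the follicle cell and out into the follicle. They were divided over the libraries in different ways. Slc5a5, the sodium-iodide symporter gene, had 835 reads in the MHC-II high and 311 in the MHC-II low library. Its level of 1.87 against 2.09 RPKM gave a ratio of 0.89, with an interval of 0.78 to 1.02 that includes 1, and its log2 ratio of −0.17 turned positive with unscaled (0.12), epithelial (0.19) and deposited RPKM totals (0.84). Slc26a4, the pendrin gene, had 2223 against 75 reads, or 4.72 against 0.479 RPKM. Its ratio of 9.85, with limits of 7.82 and 12.6, was the highest of the 8 and exceeded that of 98.5% of the compared genes. Within the MHC-II high library Slc26a4 was 2.53 times the level of Slc5a5 per length, and within the MHC-II low library 0.229 times. This balance shifted 11.0-fold between the libraries (interval 8.43 to 14.6), a value that does not depend on how the libraries are scaled. Of the genes beside Slc26a4, Cbll1 had a ratio of 1.47 and Bcap29 one of 1.22. Ccdc124, beside Slc5a5, had a log2 ratio of −0.79.

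**Figure D1:**
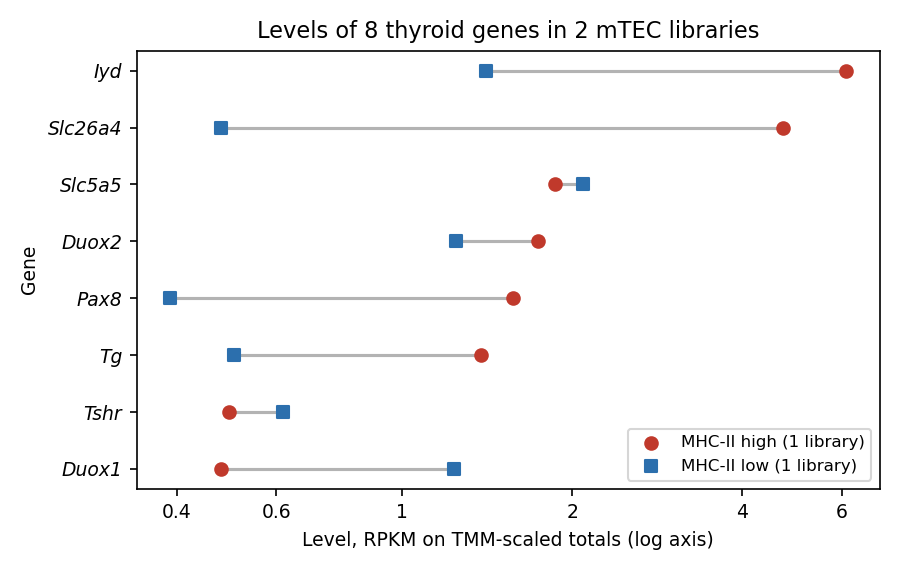
Levels of the 8 genes per length in the MHC-II high library (circles) and the MHC-II low library (squares), as RPKM on TMM-scaled totals on a log axis, 1 library per point. Slc26a4, Iyd, Pax8 and Tg lie to the right in the MHC-II high library, Duox1 lies to the right in the MHC-II low library at 1.24 against 0.480, and the other genes lie close together.

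Duox1 and Duox2 are neighbouring paralogs whose enzymes make the hydrogen peroxide for iodination, and they were split in opposite ways. Duox1 had 386 reads in the MHC-II high and 331 in the MHC-II low library, or 2.53 against 6.52 CPM. It was 2.58-fold higher in MHC-II low cells, with limits of 2.22 and 3.00, and its ratio was above that of only 8.15% of compared genes. Duox2 had 1210 against 288 reads, or 7.92 against 5.67 CPM, a ratio of 1.40 (1.23 to 1.59) that excludes 1 but does not reach 2. Per length Duox2 was 3.63 times Duox1 in the MHC-II high library and 1.01 times in the MHC-II low one. That balance shifted 3.60-fold (2.95 to 4.40), whichever library totals are used. The log2 ratio of Duox1, −1.37, became −1.08 with unscaled totals, −1.01 with epithelial totals and −0.37 with the deposited RPKM totals, none of them beyond 2-fold over the whole interval. Duoxa2, the maturation factor that Duox2 needs to leave the endoplasmic reticulum and that lies beside it, had 503 against 95 reads and a ratio of 1.76 (1.41 to 2.21). Further out, Sord beside Duox2 had a log2 ratio of −1.78 and Shf beyond Duox1 one of −1.03. The deposited length of Duox2, 4554 bases, equals the coding part of its GENCODE transcript of 5744 bases, while Duox1 was counted over its whole transcript of 5267 bases. The level of Duox2 against Duox1 within a library therefore compares unlike gene models.

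The paralogs also share sequence, which bears on how reads are assigned. In GENCODE, 9 stretches of at least 50 identical bases run between their transcripts, 856 bases in all or 16.3% of the Duox1 transcript, each of them coding. The longest, 170 bases, is shown because a whole sequenced read can lie inside it. It runs from base 734 to 903 of the Duox1 transcript and from 721 to 890 of that of Duox2.
Duox1 and Duox2: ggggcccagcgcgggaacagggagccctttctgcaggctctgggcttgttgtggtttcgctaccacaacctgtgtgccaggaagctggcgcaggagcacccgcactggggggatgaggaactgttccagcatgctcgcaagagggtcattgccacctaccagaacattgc
The authors' handling of reads that match both genes is not given in the sources used here, so both values are uncertain to that extent. Tshr, Slc5a5, Slc26a4 and Iyd shared no run of 50 bases with a transcript of another GENCODE gene, while Tg and Pax8 shared runs only with the antisense models named beside them.

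Iyd encodes the deiodinase that recovers iodide from unused iodotyrosines. It had 1435 reads in the MHC-II high and 110 in the MHC-II low library, or 9.39 against 2.17 CPM. The ratio was 4.33 (3.57 to 5.31), above that of 94.0% of the compared genes. At 6.10 RPKM it was the most abundant of the 8 per length in the MHC-II high library, above 59.7% of all genes there. In the MHC-II low library it was second to Slc5a5, at 1.41 RPKM. Its neighbours Ppp1r14c and Plekhg1 had ratios of 1.07 and 1.58.

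Tshr encodes the receptor for thyrotropin (TSH), the target of the antibodies of Graves disease. It had 326 reads in the MHC-II high and 135 in the MHC-II low library, or 0.495 against 0.617 RPKM. The ratio was 0.80 (0.65 to 0.99), within 2-fold, and on the log2 scale −0.32. This sign depends on the scaling and turned positive with totals from 4 epithelial genes (0.04) and with the totals behind the deposited RPKM (0.68). A second, shorter transcript of 1346 bases had 56 against 37 reads, and a ratio of 0.50 with wide limits of 0.33 and 0.78. How reads common to both transcripts were counted is not stated. Gtf2a1, next to Tshr, was 3.12-fold higher in MHC-II high cells and Cep128, on the other side, had a ratio of 1.82.

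Pax8 encodes the paired-box factor that drives the follicle cell programme and transcription of Tg and Slc5a5 in thyroid. It had 607 reads in the MHC-II high and 50 in the MHC-II low library, or 3.97 against 0.985 CPM. The ratio was 4.03 (3.02 to 5.49). Per length it was the lowest of the 8 in the MHC-II low library, at 0.390 RPKM, against 1.57 RPKM in the MHC-II high one. Of its 6061 exonic bases in GENCODE, 367 overlap an antisense gene model, Gm13415, whose reads cannot be separated. Reads were counted on a shorter transcript of 2527 bases, where the overlap weighs more. In the matching GENCODE transcript, 272 of 2511 runs of 50 bases were shared with Gm13415. Neighbouring Psd4 had a ratio of 1.08, and Cacna1b was 2.85-fold higher in MHC-II high cells.

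**Figure D2:**
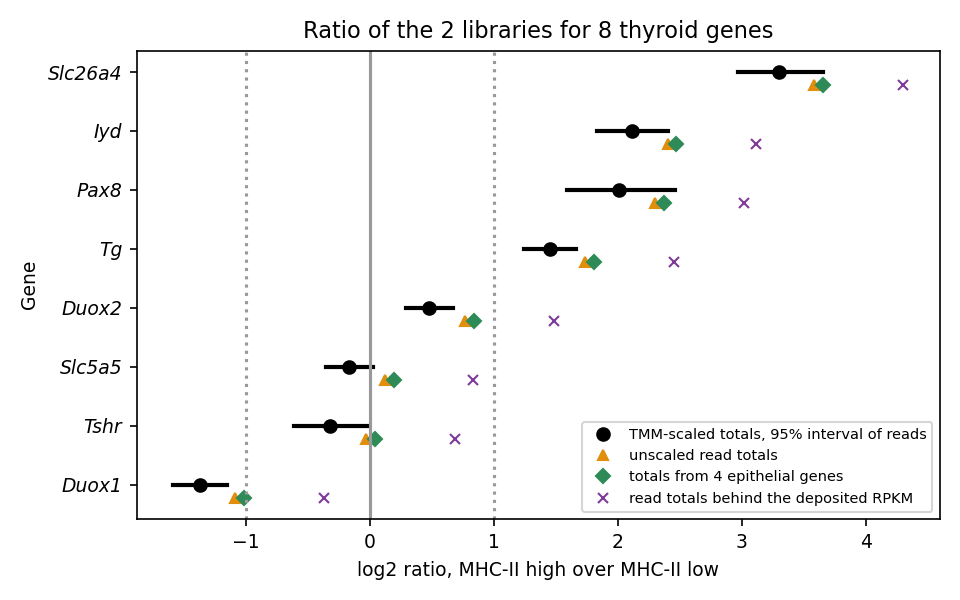
Log2 ratio of MHC-II high over MHC-II low for each of the 8 genes, with black points and bars for TMM-scaled totals and the 95% interval of the reads, and coloured marks for 3 other library totals. Dotted lines mark 2-fold, and the genes run from Slc26a4 at 3.30 to Duox1 at −1.37 on TMM-scaled totals. Other totals shift all genes by the same amount, so they cannot change this order.

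The order of levels differed between the fractions. Per length in the MHC-II high library it ran Iyd, Slc26a4, Slc5a5, Duox2, Pax8, Tg, Tshr and Duox1, from 6.10 to 0.480 RPKM. Tshr and Duox1, at 0.495 and 0.480, were nearly level, as were Slc5a5 and Duox2, at 1.87 and 1.74. In the MHC-II low library it ran Slc5a5, Iyd, Duox2, Duox1, Tshr, Tg, Slc26a4 and Pax8, from 2.09 to 0.390 RPKM. There Duox2 and Duox1 were level at 1.25 and 1.24, and Tg and Slc26a4 at 0.504 and 0.479. With 1 library each, no spread between samples is known for these orders. Iyd and Slc26a4 together held 33.2% and 25.7% of the summed level of the 8 genes in the MHC-II high library, against 17.6% and 6.01% in the MHC-II low one. Slc5a5 held 26.2% in the MHC-II low and 10.2% in the MHC-II high library.

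**Figure D3:**
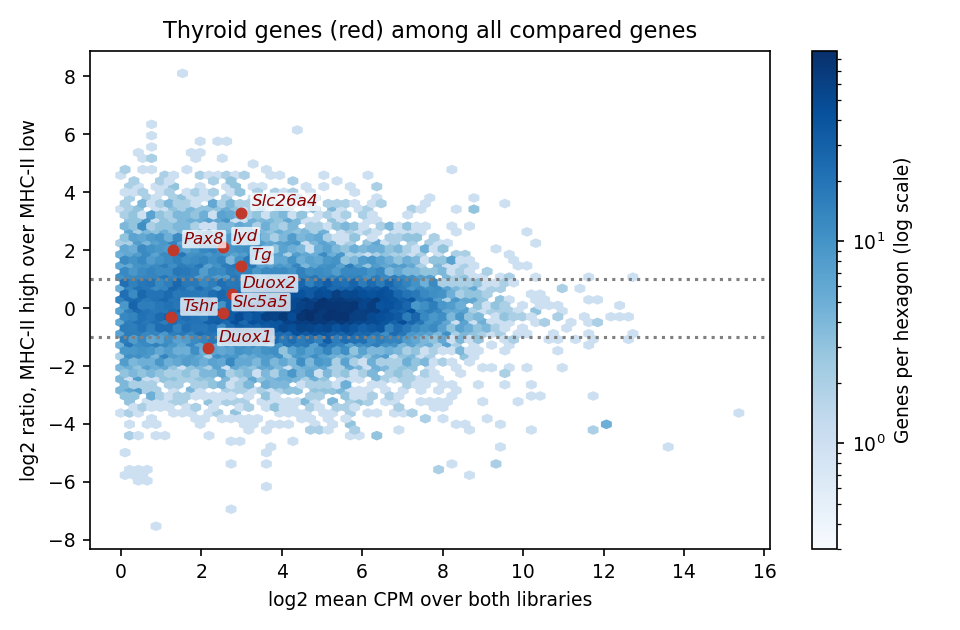
Log2 ratio of MHC-II high over MHC-II low against log2 mean CPM for all 17438 compared genes (hexagons shaded by number of genes on a log scale), with the 8 thyroid genes in red and dotted lines at 2-fold. The 8 genes sit on the left, low-abundance side, and span ratios from 0.39 for Duox1 to 9.85 for Slc26a4.

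Reads on genes came to 138368543 in the MHC-II high and 56077471 in the MHC-II low library, and all 8 genes still had reads when the deeper one was thinned. When the reads of the MHC-II high library were thinned to the total of the other, Slc26a4 kept a median of 904.5 reads against 75 counted in the MHC-II low library. Thinned Tg kept 716.5 against 216, and Duox1 157.5 against 331. Thinning used unscaled totals, so these reads are not on the scale of the ratios from TMM-scaled totals. On unscaled totals Tshr, with a thinned median of 132 against 135, was level, while its ratio on TMM-scaled totals was 0.80. Intervals cover counting error only, and no spread between libraries. PCR reads without molecular identifiers are not independent molecules, so the intervals may be too narrow even for counting error.

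Partners of the 8 genes in hormone synthesis were mixed. Of 9 listed, 8 had a value, 7 passed the minimum, 2 were higher, 1 was lower, and the median log2 ratio was 0.49. Kcne2, a potassium channel subunit needed for iodide uptake, was 25.9-fold higher in MHC-II high cells (14.7 to 50.3), on 935 against 12 reads. It passed the minimum only through that library. The most abundant per length, Tpst2, a tyrosine sulfotransferase, and Kcnq1, the channel partner of Kcne2, had log2 ratios of 0.16 and −0.48, the latter turning positive with the deposited RPKM totals. No accession was matched to Duoxa1.

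Of 4 other transcription factors of the follicle, 3 passed the minimum and none of these 3 had its whole interval beyond 2-fold. Glis3 stood at 1.67 against 2.27 RPKM and Foxe1 at 0.598 against 1.25 RPKM, the latter a ratio of 0.48 (0.35 to 0.66). Foxe1 passed the minimum only through the MHC-II low library, and was under it with epithelial and with deposited RPKM totals. The median log2 ratio of the 3 genes was −0.45, and the log2 ratio of Glis3, −0.45, turned positive (0.56) with the deposited RPKM totals. Nkx2-1, singled out after its values were seen because it alone was under the minimum, had 190 against 10 reads, a ratio of 6.31 (3.36 to 13.4). Nkx2-1 is also known from lung and forebrain.

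Of 8 listed genes of the hormonal axis around Tshr, 7 passed the minimum, 4 of them higher and 0 lower, with a median log2 ratio of 2.03. Cga, the alpha subunit of TSH and of the gonadotropins, had 1327 against 55 reads and a ratio of 8.01 (6.12 to 10.7). Gphb5, a subunit of thyrostimulin, a second ligand of Tshr, had one of 8.40 (6.24 to 11.6). Trh, the hypothalamic releasing hormone gene, and Trhr, its receptor, were 9.01-fold and 4.07-fold higher in the same library. Tshb, the TSH beta subunit gene, was under the minimum with 110 against 9 reads. Gphb5 and Trhr passed the minimum only through the MHC-II high library. The G protein genes Gnas and Gnaq, abundant at 157 against 282 and 7.22 against 10.6 RPKM, had log2 ratios of −0.84 and −0.55 that turned positive with the deposited RPKM totals.

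Among 10 genes of hormone metabolism and action, 4 were higher, 1 was lower and the median log2 ratio was 0.69. Dio3, the deiodinase that inactivates the hormone, was 11.0-fold higher in MHC-II high cells (7.18 to 17.6). Serpina7, which encodes thyroxine-binding globulin, was 3.02-fold higher, the receptor gene Thrb 2.67-fold and the transporter gene Slco1c1 4.10-fold. Thra, the other receptor gene, was 2.77-fold higher in MHC-II low cells, a call lost with totals from epithelial genes and with the deposited RPKM totals. Dio1, which activates the hormone, was abundant in both libraries, at 166 and 101 RPKM. Dio3 and Slco1c1 passed the minimum only through the MHC-II high library.

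Genes that fold and digest thyroglobulin in thyroid serve the same steps in most cells. Of 11, none was higher and 2 were lower, with a median log2 ratio of 0.18. The protease genes Ctsl and Ctsd were 6.10-fold and 2.90-fold higher in MHC-II low cells, although Ctsd was within 2-fold with the deposited RPKM totals. The chaperone genes Hspa5 and Calr stood at 968 against 572 and 745 against 651 RPKM. Counts of higher genes on this list depend on the scaling, with 2 higher on unscaled totals and 6 on the deposited RPKM totals.

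Of 7 NADPH oxidase relatives of the DUOX enzymes, 6 passed the minimum, 3 of them higher and 0 lower, with a median log2 ratio of 0.97. Nox1, the colon oxidase, was 4.35-fold higher in MHC-II high cells, and Cybb and Cyba, the phagocyte oxidase subunits, 5.94-fold and 2.66-fold. Noxo1, a partner of Nox1, had a ratio of 1.44. Nox3, the inner ear oxidase, was under the minimum with 10 against 70 reads. Of 5 dendritic cell and macrophage markers, 4 were higher in the same library, and all 5 summed to 43.1 against 13.8 CPM. The part of such cells in the oxidase values was not tested.

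**Figure D4:**
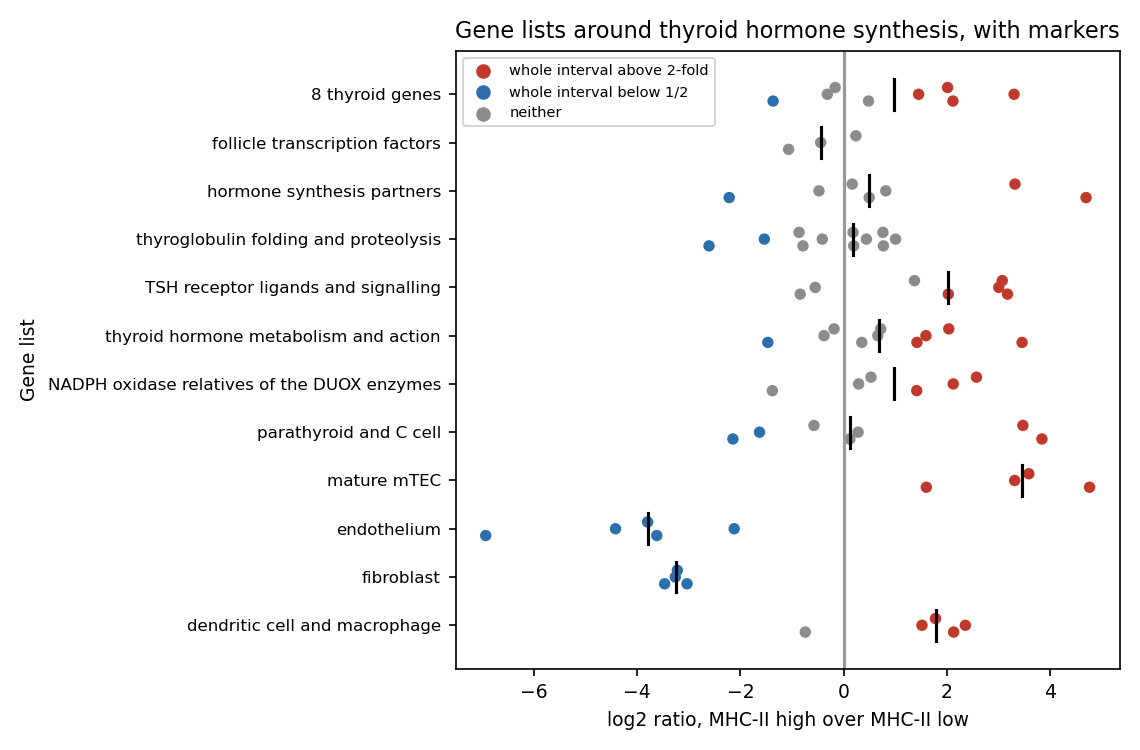
Log2 ratio of MHC-II high over MHC-II low for each gene past the minimum in the lists named on the vertical axis, with a black bar at each list's median. Red points have their whole 95% interval of reads above 2-fold and blue points below 1/2: the 8 thyroid genes have 4 red and 1 blue, and the medians of the plotted lists run from −3.80 for endothelium to 3.45 for mature mTEC.

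Markers of cells other than mTEC had reads in both libraries and differed between the fractions. All 4 mature mTEC markers were higher in MHC-II high cells, at a summed 1202 against 191 CPM, with Aire at 571 against 21.0 CPM. Of 4 thymic epithelial markers, Epcam and Krt8 were within 2-fold (621 against 586 and 1569 against 1955 CPM), Foxn1 was 3.24-fold higher in MHC-II high cells and Krt5 was 7.63-fold higher in MHC-II low cells. All 5 endothelial and all 4 fibroblast markers were lower in MHC-II high cells, at 46.2 against 397 and 95.3 against 877 CPM, and 2 of the 3 erythroid markers past the minimum were lower, the 4 listed summing to 60.3 against 2141 CPM. Of 4 T cell markers, Cd4 was higher and Rag1 lower, and all 4 summed to 26.9 against 36.5 CPM. No marker in these lists was at 0 reads. When the library totals were replaced by the reads of 4 epithelial genes (Epcam, Cdh1, Krt8 and Krt18), Slc26a4, Iyd, Pax8 and Tg were still higher beyond 2-fold, and Duox1, at a log2 ratio of −1.01, was no longer lower beyond it. That replacement raises the log2 ratio of every gene by the same amount, so it could not remove a higher call. Nor can it show which cells the reads of a gene came from. Fewer cells of a type and less RNA per cell cannot be told apart in bulk samples, and the part of other cells in the 8 genes' values was not tested.

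Endocrine cells that lie beside or inside the thyroid were looked for with 7 markers. Pth, the parathyroid hormone gene, had 1328 against 1953 reads and was 4.43-fold higher in MHC-II low cells, while Gcm2 and Casr had ratios of 1.21 and 1.08. Calca and Calcb, the calcitonin gene and its relative, were 11.1-fold and 14.3-fold higher in MHC-II high cells, and Chga was 3.10-fold higher in MHC-II low cells, though within 2-fold with the deposited RPKM totals (log2 ratio −0.63). These genes thus showed no common direction, and none was at 0 reads in either library. Whether any of their reads, or those of the 8 genes, came from tissue next to the thymus was not tested.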

How the data were processed

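Poly-A-selected RNA, without strand, of 1 MHC-II high and 1 MHC-II low mTEC library was sequenced. Per the submitters' processing notes, mm9, CASAVA, Bowtie 1.0.0 and bedtools were used; their settings, the handling of reads with several matches and the annotation version are not given in the sources used here. For each RefSeq transcript the authors deposited, per the file headers, a read count, a length and an RPKM value. The deposited RPKM values correspond to read totals of 213854095 and 142330178, computed here from counts and lengths, which served as an alternative only.

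Stray read records (18 and 36 lines) were left out and genomic copies of an accession summed. Of 29920 accessions, 29800 were in both tables with equal length and were kept. Symbols came from RefSeq (GRCm38.p6) and GENCODE vM21, and 394 accessions had none. The transcript with most reads over both libraries stood for its gene. CPM used totals of 152834158 and 50769789, scaled by TMM (edgeR 4.0.16, R 4.3.3) over genes whose mean CPM reached 1. Ratios have exact 95% Clopper-Pearson intervals (scipy 1.17.1). Higher and lower mean that the whole interval lay beyond 2-fold. There is no p-value, since each group has 1 library. The method was tested on simulated counts with counting error only, in which few genes changed, as many up as down. There it called 50 of 50 genes changed 3-fold and 0 of 50 changed 1.5-fold. The simulation held no spread between samples or libraries, so it does not show how reliable calls from 1 library per group are.

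Named genes were the 8 members, their neighbours and, from each list, every gene beyond 2-fold and the 2 most abundant per length. Tshb, Nox3, Nkx2-1, Duoxa1, Gcm2, Casr and Epcam are named outside that rule, chosen after their values were seen. The members and lists were chosen with earlier results of these data known. Alternatives changed the totals (also DESeq2 1.42.0 size factors), the transcript, the minimum and the threshold. Some genes of the lists are not reported here by name.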

Additional observations from a re-analysis of the deposited data

How the results depend on the processing

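Higher calls for Slc26a4, Iyd, Pax8 and Tg held under every choice of totals tried. All of these other totals raised every log2 ratio, so none could bring a ratio above 2-fold back within it. Each of these 4 genes has 1 listed transcript, so the choice of transcript could not change its reads. The count of higher members stayed within 4 to 5 except at a 4-fold threshold, where it was 1 (Slc26a4). The count of lower members, 1 (Duox1), was 0 with unscaled totals, with the deposited RPKM totals, with totals from 4 epithelial genes and at a 4-fold threshold. The members' median log2 ratio was 1.25 with unscaled totals, 1.97 with RPKM totals, 1.08 with DESeq2 size factors, 1.32 with epithelial totals and 1.08 with TMM over all genes, the last chosen after seeing the data. The same totals moved the median of all genes by 0.29, 1.01, 0.12, 0.36 and 0.12. All-gene counts were 2530 higher and 1907 lower, 57.0% of those called being higher. That share was 72.9% with unscaled, 93.9% with RPKM and 76.2% with epithelial totals, 42.6% with no minimum and 44.3% with a minimum of 0.1 CPM. Counts of all genes beyond 1.5 times these were 7232 higher and 471 lower with RPKM totals, 1174 lower with epithelial totals, 3822 lower with no minimum, 3569 lower with a minimum of 0.1 CPM, 3973 higher and 3562 lower at 1.5-fold, and 853 and 571 at 4-fold. In the MHC-II low library 7 members reached 1 CPM, but 4 did with RPKM totals. Leaving out a replicate was not possible with 1 library per group. No paired analysis was possible because each group has 1 library. Depth limits the values of genes with few reads in the MHC-II low library, such as Kcne2 (12 reads).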
